A study of Pimephales promelas with 15 samples.

Results

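The prefix scaf36 marks 176 of the 26150 gene identifiers (IDs) in a count table of fathead minnow larvae (Pimephales promelas), a small freshwater fish used in toxicity testing. Each ID has the form of a prefix and a number. Members were chosen by the prefix alone, and the numbers after the dot run from 1 to 293 with 117 numbers in between not listed. What the prefix stands for, and whether neighbouring numbers are neighbours on a chromosome, is not stated in the sources used here. Earlier results of these data drew attention to scaf36 because its IDs between numbers 41 and 44 were at the same level under both exposures. Only scaf36.41, scaf36.43 and scaf36.44 are listed in that stretch. Their differences between exposures are therefore described without a test.

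Samples were pooled whole animals, called embryos in the titles, and their poly(A) RNA was sequenced. Larvae were taken 4 days after hatching, and every group had been kept in dishes with static renewal of the water from less than 6 hours after fertilization until 96 hours after hatching. The solvent group received 0.01% DMSO. The exposed groups received 17α-ethinylestradiol (EE2) at nominal concentrations of 20 ng/L or 100 ng/L, and their titles do not give a DMSO level. Each of the 3 groups had 5 libraries, with total counts of 32674182 to 73989987 over the 15 libraries. The labels do not say whether the pools of a group came from separate dishes, so each p-value describes only how these libraries spread.

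EE2 is the synthetic estrogen of oral contraceptives. Estrogens enter cells and bind nuclear estrogen receptors, which then act as transcription factors at their target genes. In egg-laying fish the liver answers estrogen by making egg yolk precursor proteins, and males and larvae can be made to do so by exposure. None (0) of the 26150 IDs matched an entry of the 64593 genes in the RefSeq table for this species, so no scaf36 ID is given a gene name, function or sequence here. In RNA from whole pooled larvae, a change in the number of cells of a type and a change of RNA per cell cannot be told apart.

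Levels are counts relative to library size (CPM) after composition scaling, in which library sizes are adjusted so that a few abundant transcripts do not shift the rest. In solvent larvae scaf36.44 was at 0.208, 0.365, 0.234, 0.360 and 0.249 CPM in replicates 1 to 5. Under 20 ng/L it was at 128, 79.0, 89.0, 97.1 and 117 CPM. With 100 ng/L it was at 102, 101, 82.7, 113 and 106 CPM. Every EE2 library lay above every solvent library, and the lowest EE2 library was 217-fold above the highest solvent library. The ranges at 20 and 100 ng/L overlapped, with the lower concentration spanning the wider range. Means ± SD (n = 5 each) were 0.283 ± 0.0739 CPM for solvent larvae, 102 ± 20.2 CPM under 20 ng/L and 100.8 ± 11.1 CPM under 100 ng/L.

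In solvent larvae scaf36.43 had no count in replicates 2 and 3 and was at 0.156, 0.126 and 0.153 CPM in replicates 1, 4 and 5. Its libraries at 20 ng/L were at 31.8, 20.6, 25.7, 29.2 and 33.9 CPM. Those at 100 ng/L were at 32.6, 30.6, 24.8, 32.3 and 27.4 CPM. The groups under EE2 overlapped along most of their ranges, and both lay wholly above solvent. The means ± SD of 5 libraries were 0.0870 ± 0.0803 CPM for solvent larvae, 28.2 ± 5.25 CPM under 20 ng/L and 29.5 ± 3.36 CPM under 100 ng/L. A count of 0 in solvent replicate 2 allows up to 3 counts, or 0.0782 CPM. Such limits cover counting error only.

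The third ID, scaf36.41, had no count in 3 of the 5 solvent libraries and 3 and 4 counts in replicates 3 and 5, which is 0.0540 and 0.0765 CPM. With 20 ng/L it was at 9.29, 4.66, 6.85, 8.61 and 8.49 CPM. Larvae at 100 ng/L had 5.0, 9.34, 4.52, 5.30 and 5.09 CPM. Here too no EE2 library overlapped solvent. In 4 of the 5 libraries at 100 ng/L the level was below that in 4 of the 5 at 20 ng/L, and replicate 2 stood apart in both groups, as the lowest at 20 ng/L and the highest at 100 ng/L. Means ± SD (n = 5 each) were 0.0261 ± 0.0366 CPM without EE2, 7.58 ± 1.86 CPM under 20 ng/L and 5.85 ± 1.97 CPM under 100 ng/L, a gap between the exposures smaller than either SD.

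**Figure D1:**
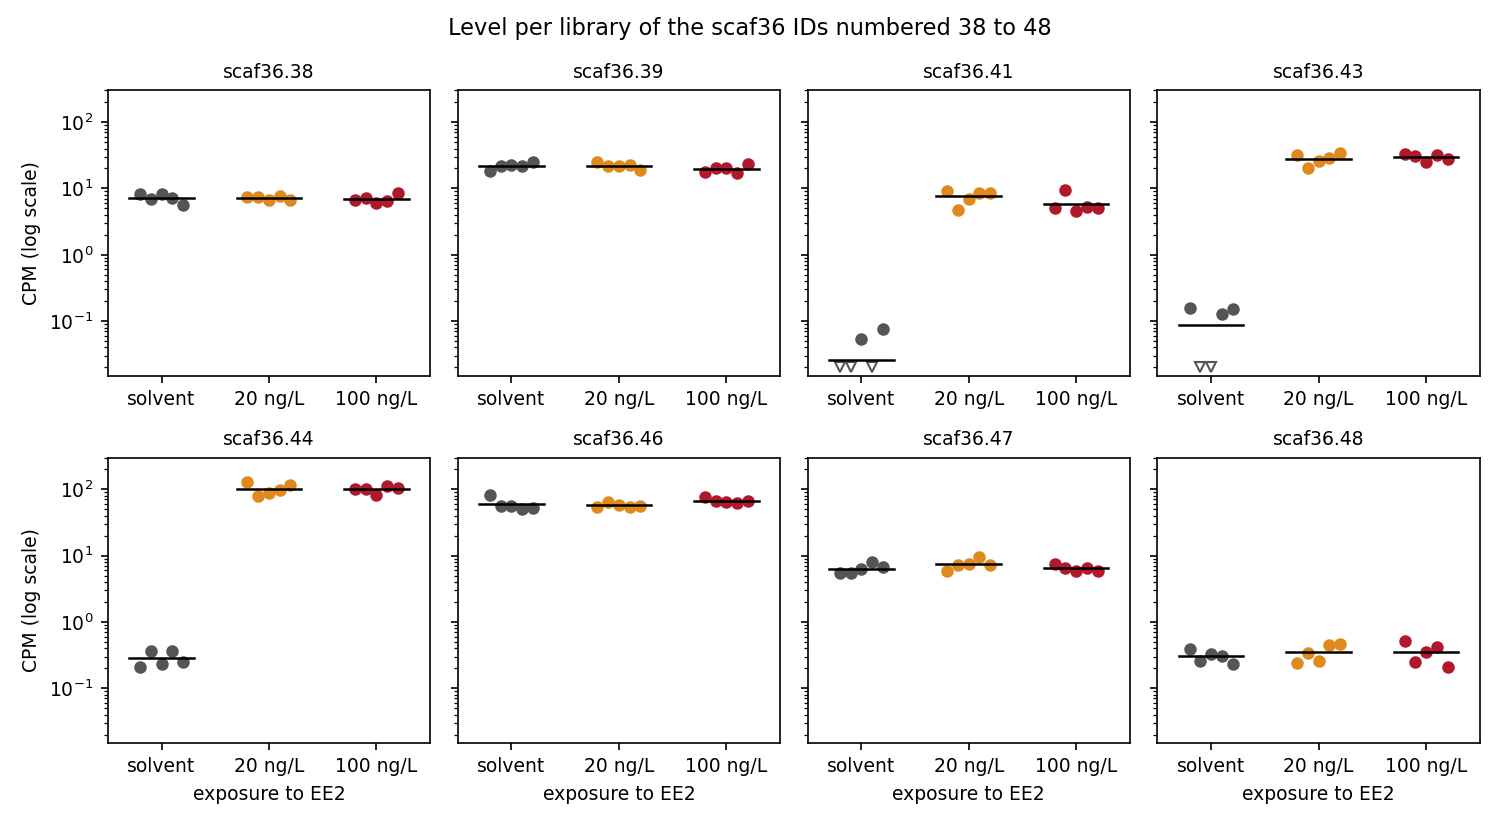
CPM on a log axis for each library of the 8 scaf36 IDs listed between numbers 36 and 49, by exposure group, with lines for group means (n = 5); open triangles at the bottom are libraries with a count of 0. The IDs scaf36.41, scaf36.43 and scaf36.44 separate solvent from both EE2 groups, while the other 5 keep similar levels in all 3 groups.

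As ratios of group means, scaf36.44 was 360-fold higher at 20 ng/L than in solvent and 356-fold higher at 100 ng/L. The ratios were 325 and 339 for scaf36.43, and 291 and 224 for scaf36.41. The fitted log2 fold changes against solvent were 8.48 (SE 0.21) at 20 ng/L and 8.46 (SE 0.21) at 100 ng/L for scaf36.44. They were 8.29 (SE 0.41) and 8.36 (SE 0.41) for scaf36.43, and 7.91 (SE 0.50) and 7.54 (SE 0.50) for scaf36.41. The solvent mean of scaf36.41 rests on 7 counts, and without solvent replicate 5 it is 0.0135 CPM, with log2 fold changes of 8.68 and 8.31. Between the exposures, the log2 difference of 100 from 20 ng/L was -0.02 (SE 0.14) for scaf36.44, 0.06 (SE 0.26) for scaf36.43 and -0.37 (SE 0.31) for scaf36.41. Without replicate 2 at 100 ng/L the last value was -0.61. Both comparisons with solvent share the same 5 solvent libraries.

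Together the 3 IDs held, as mean ± SD of 5 libraries, 4.01e-05 ± 8.51e-06% of all counts without EE2, 0.0138 ± 0.00279% under 20 ng/L and 0.0134 ± 0.00154% under 100 ng/L. In the whole solvent group there were 96 counts of the 3 IDs, of which 70.8% were scaf36.44 (exact binomial 95% interval 60.7% to 79.7%), 21.9% scaf36.43 (14.1% to 31.5%) and 7.29% scaf36.41 (2.98% to 14.4%). At 20 ng/L the shares of 38271 counts were 73.6%, 20.8% and 5.605%, and at 100 ng/L the shares of 25458 counts were 73.9%, 21.7% and 4.35%. These intervals cover counting error of the pooled counts only. Single solvent libraries differed widely, with scaf36.44 making up 57.1%, 100%, 81.2%, 74.1% and 52% of 14, 14, 16, 27 and 25 counts in replicates 1 to 5. ID lengths are not in the files, so these shares are of counts and not of transcripts.

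Within each exposed library, scaf36.43 had between 24.8% and 32.0% as many counts as scaf36.44. The mean ± SD of 5 libraries was 27.8 ± 2.23% under 20 ng/L and 29.4 ± 2.28% under 100 ng/L, a difference smaller than either SD. For scaf36.41 the values at 20 ng/L were 7.23%, 5.89%, 7.70%, 8.86% and 7.29% of scaf36.44. The values at 100 ng/L were 4.92%, 9.24%, 5.46%, 4.71% and 4.81%. Replicate 2 at 100 ng/L was the highest of all 10, and the other 4 of its group were below all 5 at 20 ng/L.

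**Figure D2:**
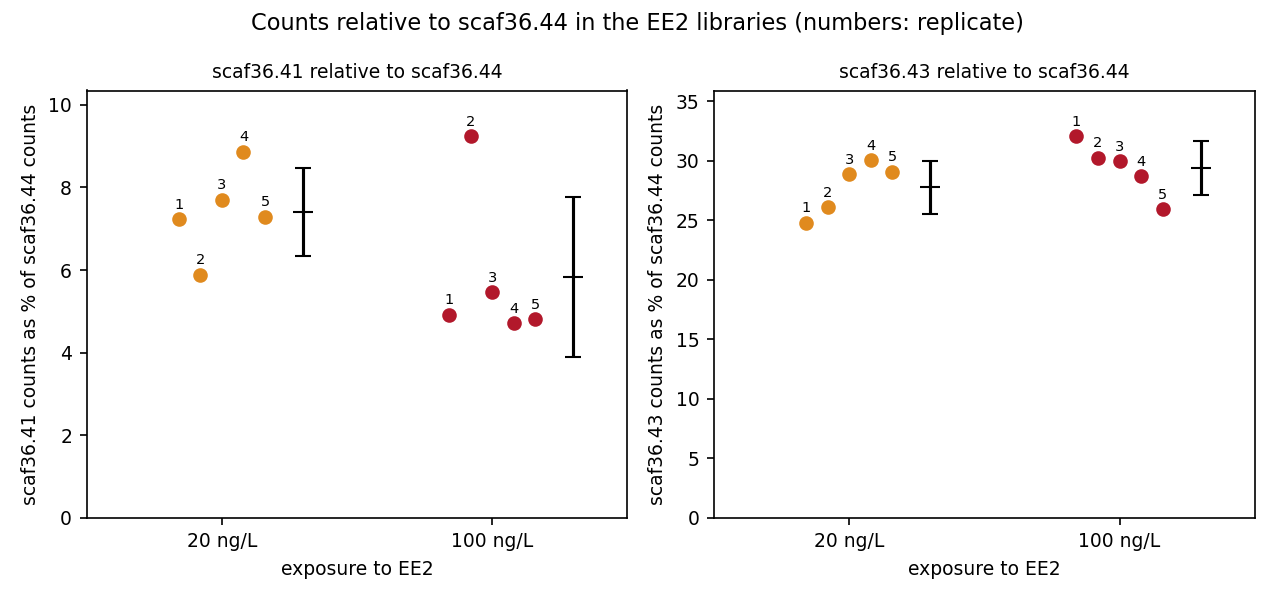
Counts of scaf36.41 (left) and scaf36.43 (right) as a percentage of scaf36.44 counts in each of the 10 EE2 libraries, with replicate numbers beside the points and mean ± SD (n = 5) at the right of each group. At 100 ng/L replicate 2 reaches 9.24% for scaf36.41 while the other 4 lie between 4.71% and 5.46%.

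The spread of libraries within each EE2 group was not used to choose these IDs. Correlations were therefore tested across the 10 EE2 libraries, for 3 pairs of IDs with p adjusted over the pairs. Values not centred within groups also hold the difference between the EE2 groups, which the choice did use. Centred values leave it out. On the log2 CPM scale scaf36.43 and scaf36.44 varied together over n = 10, with Pearson r = 0.86 (permutation p = 0.00102, or 0.00306 after adjustment) and Spearman rho = 0.82 (permutation p = 0.00552, or 0.0166 after adjustment). The 2 libraries farthest from the median of scaf36.43 were its lowest, replicate 2 at 20 ng/L and replicate 3 at 100 ng/L. Without them r was 0.69 (permutation p = 0.0479, adjusted 0.144, n = 8), which did not pass after adjustment. With fewer libraries, a weaker relation and a weaker test cannot be told apart. With values centred within each EE2 group r was 0.88 (permutation p = 0.00098, adjusted 0.00294). For scaf36.41 the relation did not pass with scaf36.43 (r = 0.52, permutation p = 0.113; rho = 0.43, permutation p = 0.217) or with scaf36.44 (r = 0.54, permutation p = 0.108; rho = 0.49, permutation p = 0.153), and the largest adjusted values were 0.113 for r and 0.217 for rho. Centred within groups, scaf36.41 and scaf36.43 had r = 0.70 (permutation p = 0.0207, adjusted 0.0310), while rho = 0.59 did not pass (permutation p = 0.0799, adjusted 0.0956). The permutations of centred values ran over all 10 libraries and did not allow for the group means taken out. Their p-values can therefore be too small, and nothing is concluded from r = 0.70. Neighbouring IDs of 1 prefix can be copies or parts of 1 gene that share reads, which was not tested, and all IDs of a library share its scaling.

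The IDs listed on each side did not share the pattern. Of the 14 numbers from 36 to 49, 8 have an ID in the table, and the 5 outside the induced stretch are scaf36.38, scaf36.39, scaf36.46, scaf36.47 and scaf36.48. Just below the stretch, scaf36.39 was at 18.5, 22.0, 22.5, 21.7 and 25.0 CPM in solvent, at 25.4, 22.0, 21.6, 22.2 and 19.1 CPM at 20 ng/L and at 17.8, 20.2, 20.4, 16.9 and 23.2 CPM at 100 ng/L. Just above it, scaf36.46 was at 81.7, 56.7, 55.3, 50.7 and 52.9 CPM in solvent, at 54.0, 64.3, 57.0, 54.6 and 56.0 CPM at 20 ng/L and at 76.0, 65.3, 64.6, 63.0 and 65.7 CPM at 100 ng/L. The 3 groups of scaf36.39 overlapped. For scaf36.46, solvent replicate 1 lay above all other libraries, and the remaining 4 solvent libraries lay below all 5 at 100 ng/L.

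Across the 5 flanking IDs the ratio of the group mean to the solvent mean ran from 0.897 to 1.16. The lowest ratio was that of scaf36.39 at 100 ng/L and the highest, by little over scaf36.47 at 20 ng/L, was scaf36.48 at 100 ng/L, an ID at only 0.302 ± 0.0616 CPM (± SD, n = 5) without EE2. For scaf36.38 and scaf36.47 the solvent means were 7.23 ± 1.01 and 6.34 ± 1.122 CPM (± SD, n = 5 each), with EE2 means between 0.968 and 1.16 times as high. With all libraries, none of the 5 passed the test across all IDs in any of the 3 comparisons (edgeR quasi-likelihood test, Benjamini-Hochberg adjusted p below 0.05). Of all tested IDs, 0.0501% passed at 20 ng/L, 0.105% at 100 ng/L and 0.0273% between the exposures. At such shares a call among 5 IDs is unlikely, so little is read from its absence. Without solvent replicate 1 the ratios ran from 0.864 to 1.25, and scaf36.46, at a ratio of 1.24, passed at 100 ng/L (edgeR adjusted p = 0.0401). In that fit 4.47% of all tested IDs passed.

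Of the 176 scaf36 IDs, 132 had enough counts to be tested and 8 had no count in any library. The 44 not tested averaged at most 0.4315 CPM. The test called 3 scaf36 IDs at 20 ng/L and 3 at 100 ng/L against solvent, the same 3 as above, where 0.0501% and 0.105% of all 21976 tested IDs were called. Since these calls led to the choice of the prefix, nothing is read from that contrast of shares. Among the other 129 tested scaf36 IDs, 0 were called at 20 ng/L, 0 at 100 ng/L and 0 in the comparison of 100 with 20 ng/L, where 0.0273% of all tested IDs were called. DESeq2 and limma-voom also called 0 of the 129 in each comparison. At 20 ng/L, at 100 ng/L and between the exposures, DESeq2 called 0.0683%, 0.264% and 0.155% of all tested IDs. The shares with limma-voom were 0.0273%, 0.0956% and 0.041%. With all 3 tools, 0 calls among 129 IDs is near the background. Before adjustment, the edgeR p lay below 0.05 for 2, 12 and 14 of the 129 in the 3 comparisons, or 1.55%, 9.3% and 10.9%, against 0.642%, 7.93% and 9.0% of all tested IDs.

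Over the 129 IDs the median log2 fold change was -0.01 at 20 ng/L and 0.01 at 100 ng/L, beside -0.01 and -0.01 for the 21844 tested IDs of other prefixes. The median size without sign was 0.08 at 20 ng/L and 0.17 at 100 ng/L, beside 0.08 and 0.16. Under 20 ng/L all 129 lay between -0.54 and 0.89, with 126 within 0.5 of 0. Under 100 ng/L they lay between -1.90 and 0.50, with 4 beyond 1 in size. Their summed share of all counts was 0.416 ± 0.0206% for solvent larvae, 0.409 ± 0.0160% under 20 ng/L and 0.398 ± 0.00512% under 100 ng/L (± SD, n = 5 each), counting all 173 members outside the induced stretch. These shares overlapped between groups.

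**Figure D3:**
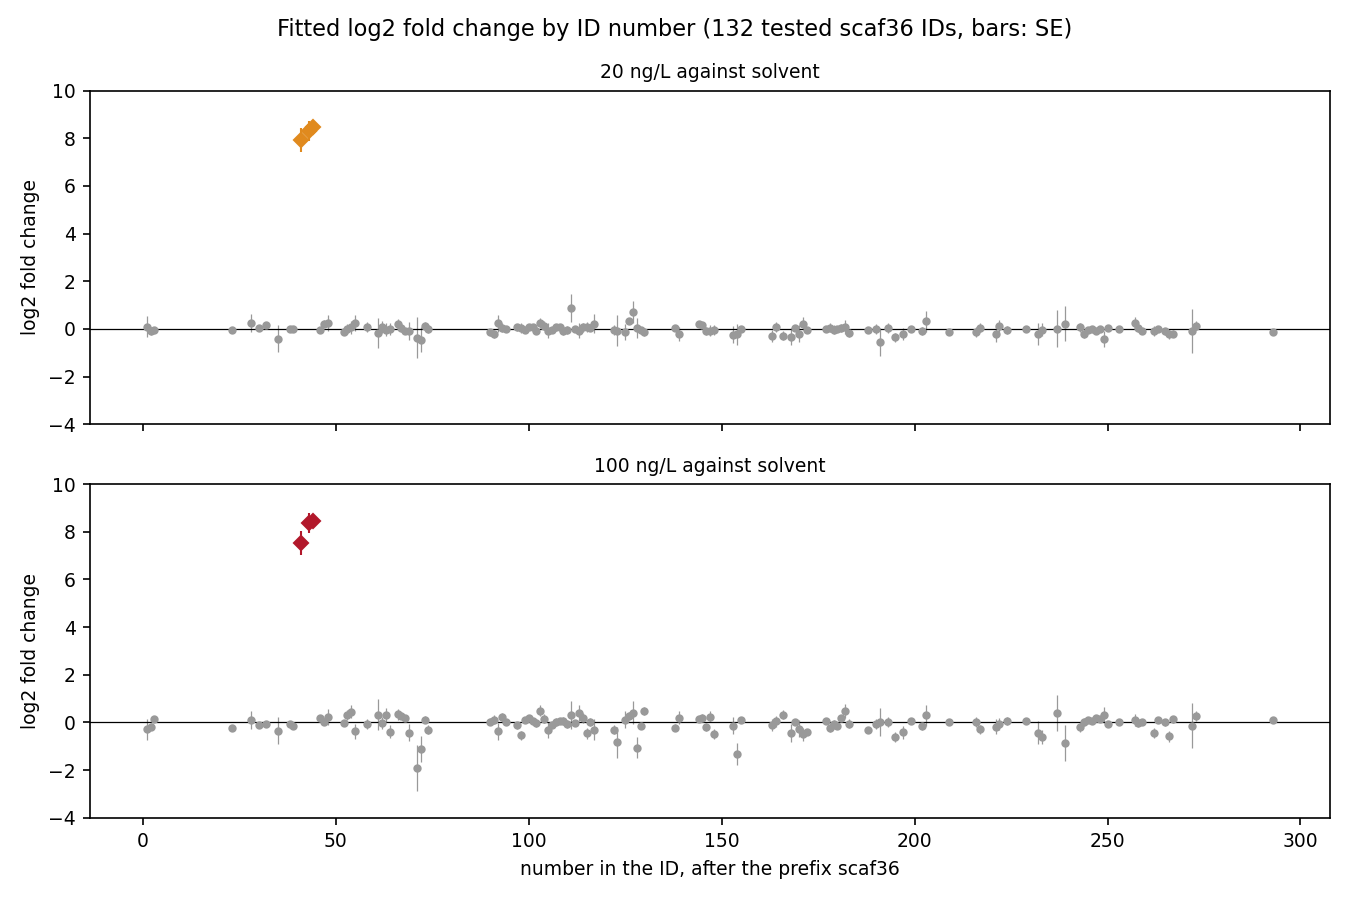
Fitted log2 fold change against solvent (vertical axis, bars: SE) by the number in the ID (horizontal axis) for the 132 tested scaf36 IDs at 20 ng/L (top) and 100 ng/L (bottom). The coloured diamonds of scaf36.41, scaf36.43 and scaf36.44 lie between 7.54 and 8.48, and the grey points of all others between -1.90 and 0.89.

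Outside the stretch from 36 to 49, the 5 largest changes in size at 20 ng/L belonged to scaf36.111, scaf36.127, scaf36.191, scaf36.72 and scaf36.249. The first of them, scaf36.111, was at 3.38, 12.7, 4.19, 0.738 and 1.49 CPM in solvent and at 6.11, 7.18, 11.4, 12.1 and 4.66 CPM at 20 ng/L. Its groups overlapped because of solvent replicate 2, and the log2 fold change was 0.89 (SE 0.58, edgeR adjusted p = 0.9999), or 1.76 without that library, again not called. The other 4 had log2 fold changes of 0.72, -0.54, -0.45 and -0.42 and group means of at most 1.94 CPM.

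At 100 ng/L the 5 largest were scaf36.71, scaf36.154, scaf36.72, scaf36.128 and scaf36.239, all lower than in solvent. Of these, scaf36.71, scaf36.72 and scaf36.239 were at means of 0.328, 1.94 and 0.338 CPM in solvent and of 0.0897, 0.899 and 0.184 CPM at 100 ng/L. With all libraries none of the 5 passed (edgeR adjusted p from 0.597 to 0.756). The remaining pair, scaf36.154 and scaf36.128, is described with solvent replicate 1 below.

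By counts, the 5 highest members over all libraries were scaf36.73, scaf36.145, scaf36.112, scaf36.128 and scaf36.146. The level of scaf36.112 was nearly constant, at 213 ± 10.7, 211 ± 10.6 and 210.1 ± 12.2 CPM (± SD, n = 5 each) for solvent, 20 and 100 ng/L. In contrast scaf36.73 spread within groups, at 170.2, 204, 229, 298 and 308 CPM in solvent, 218, 239, 253, 312 and 308 CPM at 20 ng/L and 243, 261, 249, 311 and 252 CPM at 100 ng/L. In all 3 groups replicate 4 was among its 2 highest libraries. Means of scaf36.145 were 214, 237 and 244 CPM, and those of scaf36.146 were 190.3, 179.5 and 166 CPM, in the order of rising concentration, with all groups overlapping. Within same-numbered pairs, scaf36.73 and scaf36.145 were higher at 20 ng/L than in solvent in 5 of 5, as were 4 of the 129 (3.1%) and 1.79% of all tested IDs. Neither passed in the blocked fit (edgeR adjusted p = 0.9999 for both), where their log2 fold changes were 0.15 (SE 0.10) and 0.15 (SE 0.07). Lower values at 100 ng/L than in solvent were found for scaf36.146 in 5 of 5 pairs, as for 7 of the 129 (5.43%) and 6.17% of all tested IDs (log2 fold change -0.21, SE 0.11, edgeR adjusted p = 0.396 with the block). In the other directions, 1 of the 129 (0.775%) was lower at 20 ng/L in 5 of 5 pairs beside 1.63% of all tested IDs, and 7 (5.43%) were higher at 100 ng/L beside 4.88%.

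In these fits, further members passed at 100 ng/L only where solvent replicate 1 was left out and other libraries numbered 1 were kept. Solvent replicate 1 was the highest or the lowest of the 5 solvent libraries for 69.0% of the 129 IDs, and for 63.8% of the tested IDs of other prefixes, while the other 4 solvent libraries were so for 26.4% to 41.1% of the 129. Its scaf36.41, scaf36.43 and scaf36.44 counts were 0, 6 and 8, within the range of the other solvent libraries or below it. In CPM its scaf36.43 was the highest of the solvent libraries, at 0.156 beside 0.153 in replicate 5, and its scaf36.44 was the lowest, at 0.208. Without this library, the edgeR test at 100 ng/L against solvent called 10 scaf36 IDs, among them the 3 induced ones. The other 7 were 5.3% of 132 tested outside the induced stretch, and 4.47% of all tested IDs were called in the same fit, so the share of scaf36 was near the background. With the replicate number as a block as well, the other 10 called made up 7.58%, and 10.4% of all tested IDs were called. At 20 ng/L leaving it out added 0 scaf36 calls.

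Without solvent replicate 1, 3 of the 7 rose at 100 ng/L (scaf36.46, scaf36.166 and scaf36.182) and 4 fell (scaf36.98, scaf36.115, scaf36.128 and scaf36.154). The largest in counts, scaf36.128, was at 39.0, 225, 373, 336 and 188 CPM in solvent, at 219, 162, 280, 275 and 253 CPM at 20 ng/L and at 66.8, 196, 133, 75.8 and 84.8 CPM at 100 ng/L. Solvent replicate 1 was the lowest of all 15 libraries, and replicate 2 at 100 ng/L overlapped the other solvent libraries. The log2 fold change at 100 ng/L was -1.06 (SE 0.44, edgeR adjusted p = 0.611) with all libraries and -1.32 (SE 0.30, edgeR adjusted p = 0.0369) without that library.

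For scaf36.154 the levels were 5.80, 30.5, 39.7, 31.9 and 13.1 CPM in solvent, 15.3, 17.2, 24.7, 33.3 and 12.3 CPM at 20 ng/L and 8.27, 16.4, 11.6, 5.69 and 6.21 CPM at 100 ng/L. The log2 fold change at 100 ng/L was -1.33 (SE 0.45, edgeR adjusted p = 0.597) with all libraries and -1.57 (SE 0.37, edgeR adjusted p = 0.0383) without solvent replicate 1. In the opposite direction, scaf36.166 was at 129, 62.6, 52.8, 59.3 and 88.9 CPM in solvent, 69.9, 68.2, 54.4, 63.8 and 67.3 CPM at 20 ng/L and 109.6, 82.6, 89.2, 117 and 95.5 CPM at 100 ng/L. Its log2 fold change went from 0.33 (SE 0.20, edgeR adjusted p = 0.673) to 0.59 (SE 0.15, edgeR adjusted p = 0.0418). For scaf36.46, next to the induced stretch, it went from 0.17 (SE 0.12, edgeR adjusted p = 0.697) to 0.32 (SE 0.08, edgeR adjusted p = 0.0401), a rise of 1.25-fold beside the 186- to 353-fold fitted with all libraries for its induced neighbours. The other 3 went from -0.55 to -0.69 (scaf36.98), from -0.46 to -0.62 (scaf36.115) and from 0.48 to 0.87 (scaf36.182), with edgeR adjusted p from 0.0369 to 0.0499 without that library.

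Deviations of these 7 IDs from their group means were linked across the 15 libraries. Over the 21 pairs the size of Pearson's r ran from 0.46 to 0.92 with a median of 0.80, positive within the 3 that rose and within the 4 that fell and negative between them. The points share libraries, scaling and the deviation of solvent replicate 1, by which the 7 were singled out, so this is a description only. With all 3 libraries numbered 1 left out, 0 of the 7 were called (edgeR adjusted p from 0.109 to 0.147). In that fit only 0.18% of all 22225 tested IDs were called, so the loss of calls was not particular to these 7. Their log2 fold changes kept their signs and were -1.52 for scaf36.154, -1.19 for scaf36.128, -0.71 for scaf36.98 and -0.57 for scaf36.115. They were 0.27 for scaf36.46, 0.55 for scaf36.166 and 0.72 for scaf36.182. Replicate 1 at 100 ng/L was the highest of its group for scaf36.46 and scaf36.182 and the lowest for scaf36.115 and scaf36.128. For these IDs it departed to the same side as solvent replicate 1. It was not the extreme of its group for scaf36.98, scaf36.154 and scaf36.166. What sets solvent replicate 1 apart was not tested.

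**Figure D4:**
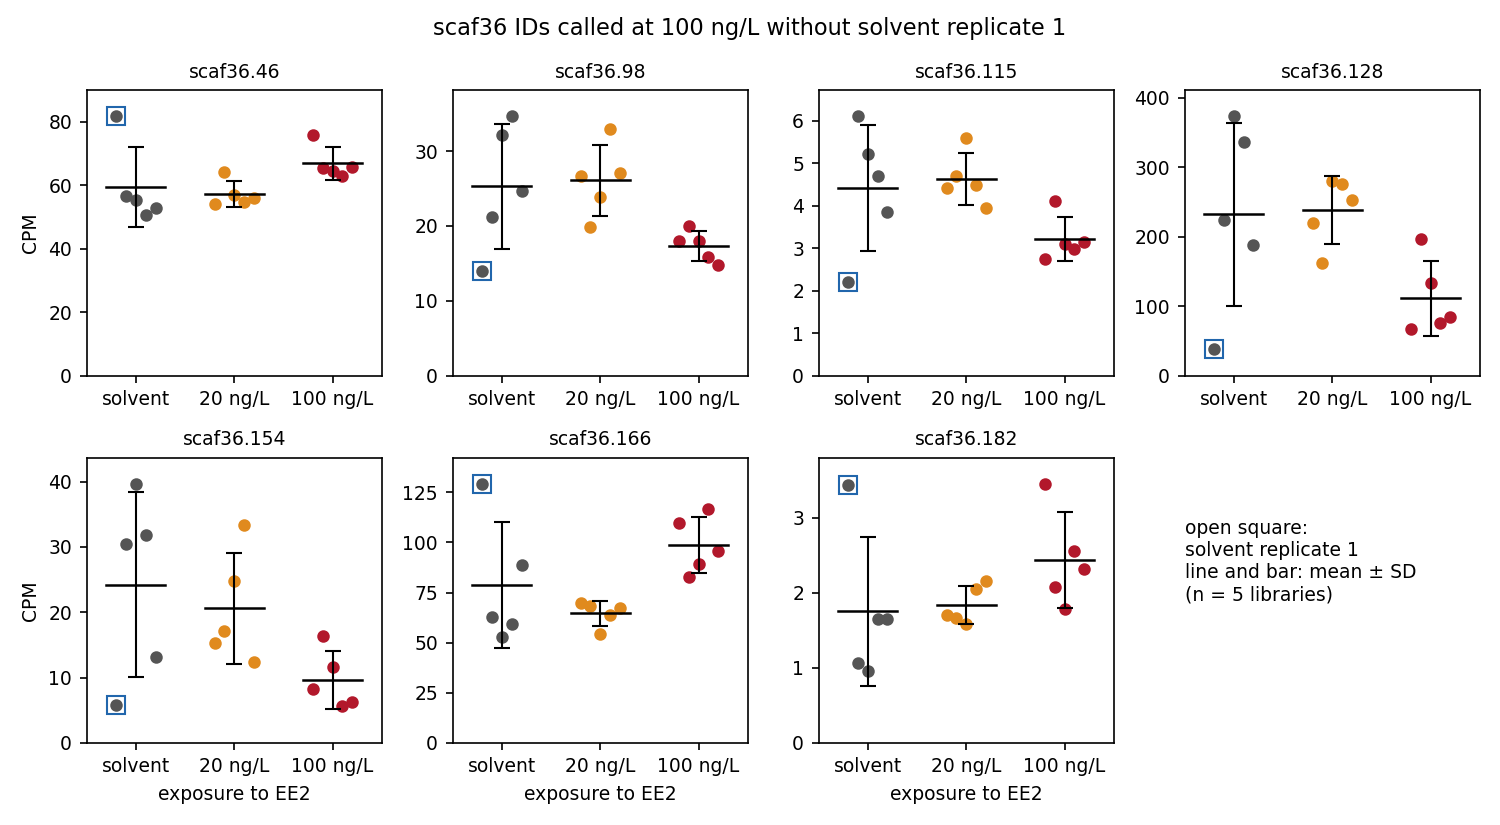
CPM by exposure group and library for the 7 scaf36 IDs called at 100 ng/L without solvent replicate 1, which is drawn inside an open square; lines and bars are mean ± SD over all 5 libraries of a group. In each panel the squared point lies on the side of the 100 ng/L libraries, away from the other 4 solvent libraries. The 7 were singled out by leaving this library out, so its place follows from their choice.

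The authors' deposited table of the lower concentration gave 3 of 91 listed scaf36 IDs an adjusted p below 0.05, and 0.0707% of all 15569 listed IDs passed. They were the induced 3, which led to the choice of the prefix, so nothing is read from these shares. In the authors' deposited table of the higher concentration it was 10 of 91. Without the induced 3 it was 7 of 88, or 7.95%, near the 7.34% of all listed IDs. Of these 10, 8 (80%) were among the 10 called without solvent replicate 1 (80%), but the 8 include the induced 3. Apart from those, the shared IDs were scaf36.46, scaf36.98, scaf36.128, scaf36.154 and scaf36.166, out of 7 called on each side. The overlap over all IDs is not given here, so this one is not read as particular to scaf36. The authors' deposited table adds scaf36.3 and scaf36.172, and it does not call scaf36.115 and scaf36.182. With the replicate block as well, a fit added after seeing the data, scaf36.3 and scaf36.172 were also called (edgeR adjusted p = 0.0475 and 0.0388). That fit still called scaf36.115 and scaf36.182, and it called scaf36.247, which the authors' deposited table does not. For scaf36.46 the authors' deposited table gives a 1.23-fold rise (adjusted p = 0.0336), and for scaf36.44 it gives 330.1-fold.

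Between the exposed groups, the 305 tested IDs of the whole table whose 100 ng/L libraries all lay above those at 20 ng/L were 1.39%, and 3 of the 129 (2.33%) did so. These 3 were scaf36.99, scaf36.166 and scaf36.247. IDs wholly below were 1.66% of all and 2 of the 129 (1.55%), scaf36.188 and scaf36.266. Solvent libraries do not enter this comparison of ranges. Against solvent, 0 of the 129 were wholly above or below at 20 ng/L, where 0.132% and 0.0228% of all were. For 100 ng/L 0 were wholly above and 2 wholly below, scaf36.172 and scaf36.195, where 0.405% and 0.378% of all were. The one with more counts, scaf36.172, was at 16.3 ± 0.951, 15.9 ± 1.05 and 12.4 ± 2.36 CPM (± SD, n = 5 each) for solvent, 20 and 100 ng/L (log2 fold change at 100 ng/L -0.40, SE 0.12, edgeR adjusted p = 0.587).

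Outside scaf36.41 and scaf36.43, the 5 tested IDs of the whole table whose log2(CPM + 0.5) over the 15 libraries was most like that of scaf36.44 were scaf15.507 (Pearson r = 0.98), scaf140.3 (0.92), scaf14.518 (0.92), scaf62.127 (0.89) and scaf140.4 (0.88). The values for scaf36.43 and scaf36.41 were 0.998 and 0.987. All 15 libraries enter, so these r values mostly follow the gap between solvent and EE2. The nearest, scaf15.507, was also at the same level in both exposed groups, at 0.504 ± 0.311 CPM without EE2 and at 8.19 ± 1.25 and 8.04 ± 0.202 CPM with it (± SD, n = 5 each). The scaf140 IDs instead differed between the exposures, with scaf140.3 at 300.5 ± 313 and 3343 ± 631 CPM (± SD, n = 5 each).

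At 20 ng/L the level of scaf140.8 was 132, 39.5, 38.5, 12.9 and 262 CPM in replicates 1 to 5, a range of more than an order of magnitude, while scaf36.44 in the same libraries stayed between 79.0 and 128 CPM. Replicates 1 and 5 were the highest for both IDs, and replicate 4, the lowest for scaf140.8, was the third for scaf36.44. With 5 libraries no correlation is given.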

How the data were processed

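The counts deposited by the authors are whole numbers, 1 for each ID in each library. For either EE2 concentration against solvent a deposited results table gives, per the file headers, p-values with adjusted p-values, F scores, mean log2 CPM and the change as log2 and as a signed fold. The tools named, per the submitters' processing notes, are edgeR 3.26.5, StringTie 1.3.4d and Trimmomatic 0.38. The aligner, the build and the gene models were not given in the sources used here. Whether reads were counted by strand is also not stated, although the library kit marks it. It is therefore not known whether the counts tell overlapping and antisense genes apart. StringTie works from coverage, so the counts may be estimates.

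All IDs were analysed together in R 4.3.3 with edgeR 4.0.16: filterByExpr (minimum count 10, minimum total 15), TMM scaling, robust quasi-likelihood fit over all 15 libraries with group means, Benjamini-Hochberg adjustment over 21976 IDs, threshold 0.05. CPM values use the TMM library sizes. Permutation tests drew up to 100000 resamples, two-sided (Python 3.11.15, scipy 1.17.1, matplotlib 3.10.9). The fit was tested on simulated data. Members, lists and tests were chosen with earlier results of these data known. IDs were named by a rule: numbers 36 to 49, called IDs, the 5 highest in CPM, the 5 largest log2 fold changes in each comparison with solvent, IDs at 0 in 3 or more libraries and at 100 or more counts in 3 others (only scaf36.41), and the 5 IDs most like scaf36.44. IDs called without solvent replicate 1, those with no overlap between groups, and those of the neighbouring pairs in the closing section were named after their values were seen, as was scaf140.8, set beside scaf36.44 because earlier results showed it to spread widely at 20 ng/L.

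Replicate numbers 1 to 5 recur in each group. Deviations from group means correlated by 0.113 to 0.617 between same-numbered libraries of solvent and 20 ng/L. For solvent with 100 ng/L the range was 0.228 to 0.386. The labels state no pairing, so it rests on these correlations. Between the exposed groups it was 0.085 to 0.447, above 0.1 in 4 of 5 pairs. Only comparisons where all 5 pairs exceeded 0.1, which were both of those with solvent, were also read in same-numbered pairs. The main fit had no block. Fold changes, SE and adjusted p given without mention of the block therefore ignore this pairing.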

Additional observations from a re-analysis of the deposited data

Results flagged for a closer look

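Among 75 groups of 5 libraries (25 named scaf36 IDs in 3 groups), 7 held a library far from the other 4 by the gap to its nearest neighbour relative to the group's range. Chance gives about 1 in 20 among independent groups, which is no yardstick here, since some of these IDs were named for a departing solvent replicate 1 or for large changes. At 100 ng/L, replicate 2 had 9.34 CPM of scaf36.41 where the others had 4.52 to 5.30, and 4.12 CPM of scaf36.115 where the others had 2.76 to 3.14. Also at 100 ng/L, replicate 1 had 75.97 CPM of scaf36.46 where the others had 63.0 to 65.7, and replicate 4 had 311.4 CPM of scaf36.73 where the others had 242.5 to 261.2. In solvent, replicate 1 had 81.69 CPM of scaf36.46 where the others had 50.7 to 56.7, and 3.43 CPM of scaf36.182 where the others had 0.953 to 1.66. Solvent replicate 2 had 12.75 CPM of scaf36.111 where the others had 0.738 to 4.19.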

How the results depend on the processing

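The number of scaf36 IDs called was 3 at 20 ng/L under all 26 alternatives (2 of them added after seeing the data) and 0 for 100 against 20 ng/L under all 26. At 100 ng/L it was 3 under 24 of them and 10 without solvent replicate 1 (3 to 10 over the libraries left out in turn). It was 13 with the replicate block and solvent replicate 1 left out, a fit added after seeing the data. Over all tested IDs the share called moved likewise, from 0.105% in the main fit to 4.47% and 10.4%. With the replicate block on all libraries, 3 scaf36 IDs were called in both comparisons with solvent and 0 between the exposures. The block alone thus changed no scaf36 call. Between the exposures the block moved the calls over all IDs from 6 to 12, and 5 of those 10 libraries correlated best with their own number. Mean CPM of the induced IDs moved by less than 1 SD in every group with RLE factors and with library size only. Leaving out 1 of 5 libraries cannot move a mean by 1 SD, so nothing is read from that bound there. With each library left out, the mean of scaf36.44 ran from 95.42 to 107.8 CPM at 20 ng/L and from 97.85 to 105.3 CPM at 100 ng/L. The SD of scaf36.41 in solvent exceeds its mean of 0.0261 CPM, which ranged from 0.0135 (without replicate 5) to 0.0326. Their log2 fold changes against solvent ranged over all alternatives from 7.20 to 8.68 for scaf36.41, 7.93 to 9.10 for scaf36.43 and 8.31 to 8.59 for scaf36.44. The shift of scaf36.43 came with limma-voom, 9.03 at 20 ng/L and 9.10 at 100 ng/L, and the cause was not tested. The Pearson correlation of scaf36.43 and scaf36.44 was 0.69 without the 2 farthest libraries (adjusted permutation p = 0.144, with fewer libraries) and 0.81 to 0.91 with each EE2 library left out. Their Spearman rho fell to 0.75 and did not pass without replicate 2 or 3 at 20 ng/L (adjusted permutation p = 0.076 and 0.0754). The same held without replicate 3 at 100 ng/L (adjusted permutation p = 0.0751), and rho passed with each other EE2 library left out. The Pearson correlation of scaf36.41 and scaf36.43 was 0.39 to 0.66 with each library left out. With values centred within each EE2 group it was 0.70 (adjusted permutation p = 0.0310, which does not allow for the group means taken out). Spearman rho of the same centred values was 0.59 and did not pass (adjusted permutation p = 0.0956). The log2 fold change of scaf36.191 at 20 ng/L was -0.87 to 0.11 with each library left out, turning to 0.11 without solvent replicate 2, and was never called. The solvent levels of the induced IDs rest on 7, 21 and 68 counts over the group, which limits every fold against solvent.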

Other observations

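Tested scaf36 IDs that follow each other by number had a median Pearson correlation of 0.135 between their within-group deviations (131 pairs, log2(CPM + 0.5), 15 libraries), beside 0.0533 for 21362 such pairs of other prefixes. The highest values were 0.929 for scaf36.71 and scaf36.72, 0.897 for scaf36.105 and scaf36.106, and 0.808 for scaf36.247 and scaf36.248. The lowest were -0.816 for scaf36.2 and scaf36.3, -0.807 for scaf36.98 and scaf36.99, and -0.794 for scaf36.145 and scaf36.146. In the highest pair scaf36.71 averaged only 0.226 CPM, below the added 0.5, and had no count in some libraries. In solvent, scaf36.105 was at 25.4, 114, 116, 91.2 and 52.1 CPM and scaf36.106 at 15.4, 21.2, 22.7, 20.0 and 19.6 CPM, with replicate 1 the lowest for both. The pairs of a prefix share libraries and IDs.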
